A study of Mus musculus with 6 samples.

Results

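The genes described here are 10 mouse genes that carry out the uptake, storage, export and sensing of iron. They were measured in cells labelled as T cells and cultured with macrophage supernatant. The genes were chosen by their symbols, with their log2 fold changes between the groups already known. The values of that comparison are therefore a description of these 10 genes, and no test is drawn from them. All 10 were found among the 55401 genes of the count table, and 9 of them had enough reads to enter the comparison. By role they are Tfrc, Tfr2, Slc11a2 and Steap3 for uptake, Fth1, Ftl1 and Ncoa4 for storage, Slc40a1 for export, and Aco1 and Ireb2 for sensing.

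Bulk RNA-seq was performed on 6 samples, 3 of T cells in supernatant of control macrophages and 3 of T cells in supernatant of macrophages exposed to NFL. NFL is neurofilament light chain, part of the axon's cytoskeleton. The T cells of both groups are described as selected from mouse spleen by CD8a on magnetic beads. Macrophages came from CD11b-positive cells of the spleen, kept for 7 days with M-CSF at 50 ng/mL. By the deposited description, NFL was applied to them at 5 µg/mL for 24 h. The paper's methods give lower NFL concentrations, in the ng/mL range, for its cell lines and co-cultures. The deposited design text derives this NFL from sciatic nerve broken up by freezing and thawing, but the paper's methods treat purchased NFL protein and nerve lysate as separate reagents, so which of them was used for these samples is not settled here. The supernatant was filtered and made up 50% of a medium with 2% serum. Mouse strain, age and time in supernatant are not given in the labels, nor whether replicates came from separate animals, so the spread between replicates may be technical. In a bulk sample, fewer cells of a type and less RNA per cell cannot be told apart.

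Cells take up most iron as transferrin, which binds the transferrin receptor encoded by Tfrc and enters endosomes, where iron is reduced by Steap3 and carried into the cytosol by Slc11a2. Iron not used at once is stored in ferritin, a shell of heavy (Fth1) and light (Ftl1) chains, and is released when the receptor Ncoa4 delivers ferritin to lysosomes. Activated T cells depend on Tfrc for iron during growth. When iron is scarce, the iron regulatory proteins IRP1 (from Aco1) and IRP2 (from Ireb2) bind hairpins called iron-responsive elements. Binding near the 5′ end of a transcript blocks its translation, as in the ferritins and the exporter Slc40a1, whereas binding in the 3′ untranslated region (UTR) protects the Tfrc transcript from decay. Ferritin regulation of this kind acts on protein, which was not measured here.

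Iron-responsive elements were searched for in GENCODE release M21 transcripts (build GRCm38), and the matches are shown because they tell which of the 10 genes carry the hairpin pattern and at which end. The capitals mark the loop of 6 bases, CAGTGN, and the 5 bases on each side of it are the inner stem, which was required to pair. Ahead of the inner stem is an unpaired C, and the outermost bases are shown as context and do not pair in every element. Each line is 29 bases, written 5′ to 3′ on the transcript strand. In the ferritins and Slc40a1 the element lies in the 5′ UTR.
Fth1 5′ UTR, chr19:9982732-9982760, plus strand: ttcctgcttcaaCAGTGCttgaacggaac
Ftl1 5′ UTR, chr7:45459779-45459807, minus strand: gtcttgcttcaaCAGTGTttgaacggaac
Slc40a1 5′ UTR, chr1:45925465-45925493, minus strand: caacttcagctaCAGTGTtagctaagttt
Tfrc 3′ UTR, chr16:32631219-32631247, plus strand: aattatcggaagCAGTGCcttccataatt
Tfrc 3′ UTR, chr16:32631598-32631626, plus strand: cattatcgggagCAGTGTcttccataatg
Tfrc 3′ UTR, chr16:32631663-32631691, plus strand: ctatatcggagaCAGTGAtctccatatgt
Tfrc 3′ UTR, chr16:32631710-32631738, plus strand: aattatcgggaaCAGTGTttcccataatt

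The search asked for a C, 5 bases, CAGTGN, and 5 bases that pair with the first 5, with G-T pairs allowed, on the transcript strand only, in the protein-coding transcripts of the GENCODE basic set. It found such a match in 4 of the 10 genes, against 288 of 21899 protein-coding genes (1.32%). Nothing is read from this contrast, because the ferritins, Slc40a1 and Tfrc were already known to carry the hairpin searched for. The letters CAGTG alone occurred in transcripts of 93.8% of these genes. Tfrc held 4 matches, starting at bases 3321, 3700, 3765 and 3812 of a transcript of 4890 bases whose coding sequence ended at base 2429. The single matches of Ftl1, Fth1 and Slc40a1 started at bases 84, 93 and 96, ahead of coding sequences that began at bases 254, 225 and 320. In the searched set, 1 of 2 transcripts of Tfrc, 1 of 2 of Ftl1, 3 of 3 of Fth1 and 1 of 1 of Slc40a1 held a match. No match was found in the transcripts of that set for Tfr2, Slc11a2, Steap3, Ncoa4, Aco1 and Ireb2, which says only that this pattern is not in them. Other annotated transcripts were not searched. A match is a description of the letters and not a measured site of binding.

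**Figure D1:**
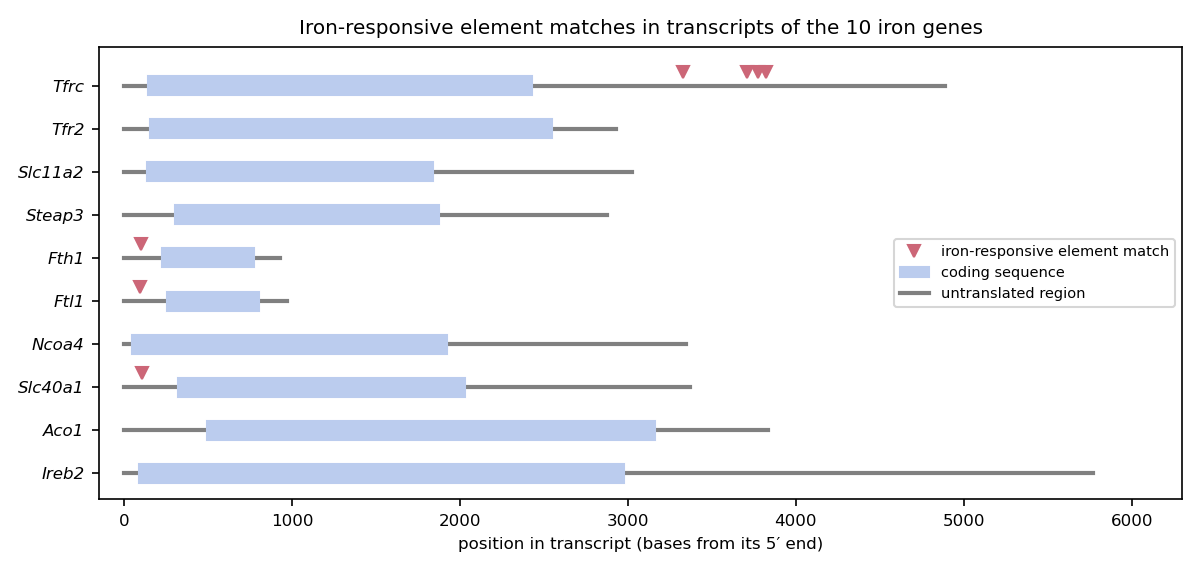
Transcripts of the 10 iron genes, with the position in bases from the 5′ end on the x axis, coding sequence as boxes, untranslated regions as lines and matches to the iron-responsive element as triangles. The 4 matches of Tfrc lie after its coding sequence, and the single matches of Fth1, Ftl1 and Slc40a1 lie before theirs.

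Total counts ranged from 15843045 to 24639756 for control and from 16190568 to 17796228 for NFL. A floor of 3 counts corresponded to 0.122 to 0.188 CPM (counts scaled to a common library size), for counting error only. Of 14082 genes tested with edgeR's quasi-likelihood test, 986 (7.00%) passed an adjusted p of 0.05, 489 (3.47%) higher and 497 (3.53%) lower in NFL. With scaling by library size alone these were 372 higher and 600 lower. The T-cell label was checked against 13 markers, which summed to 2125 to 2231 CPM in control and 2092 to 2188 CPM in NFL. The 6 B-cell markers summed to 12.1 to 13.2 CPM and 11.6 to 14.1 CPM. Thy1 gave most of the T-cell sum (1671 CPM ± 51.2 in control, SD, n = 3), whereas Cd2 and Cd5 were at 0 in every library. Cd8a, the gene of the antigen used for selection, had 4.0 CPM ± 0.698 and Cd4 25.1 CPM ± 1.17 in control. The T-cell receptor gene Trbc1 had 347 CPM ± 5.33, Trbc2 58.1 CPM ± 1.91 and Cd3e 61.0 CPM ± 4.24 in control. Trac, also a T-cell receptor gene, had 1.89 CPM ± 0.519 in control. Cd3d had 3.63 CPM ± 1.13, Cd3g 8.04 CPM ± 0.93 and Cd8b1 1.43 CPM ± 0.188 in control. The markers were therefore mixed, with Trbc1, Trbc2 and Cd3e RNA present and that of Trac, Cd3d, Cd3g, Cd8a, Cd8b1 and Lck scarce. Cd8a and Cd8b1 both lay below Cd4, so these markers do not bear out the label of T cells selected by CD8a. The name T cells is kept here from the label, and what the cells are was not settled. Of the 11 T-cell markers tested, 8 had a log2 fold change below 0, with a median of −0.14, and 1 passed the threshold. This was Cd3e, which fell to 50.2 CPM ± 0.960 in NFL (log2 fold change −0.28, edgeR adjusted p = 0.00057). Lck had 5.20 CPM ± 0.630 in control and 3.96 CPM ± 0.267 in NFL, with no overlap (−0.38, edgeR adjusted p = 0.22). The part of these marker differences in the iron gene values was not tested.

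Tfrc, the main transferrin receptor, was one of the most abundant transcripts of these cells. It had 1133, 1163 and 1151 CPM in control replicates 1 to 3 and 1195, 1175 and 1197 CPM in NFL replicates 1 to 3. All NFL libraries lay above all control libraries, but the gap between the nearest pair was small beside the level. The means were 1149 CPM ± 15.2 and 1189 CPM ± 12.1 (SD, n = 3 each), a difference of 3.48% with a 95% interval of −0.156% to 7.26%. Tfrc did not pass the threshold over all genes (log2 fold change 0.05, SE 0.026). Its coefficient of variation was 1.32% in control and 1.02% in NFL. Tfrc lies on chromosome 16.

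Tfr2, a second transferrin receptor best known from hepatocytes and erythroid precursors, was the lowest of the tested iron genes and the one that differed most between groups. It had 3.66, 4.52 and 3.64 CPM in control and 2.11, 2.96 and 1.53 CPM in NFL, from 90, 72 and 89 reads and 34, 51 and 27 reads. The groups did not overlap, although the spread within NFL (32.8% of the mean) was wider than in control (12.7%). With means of 3.94 CPM ± 0.501 in control and 2.20 CPM ± 0.722 in NFL (SD, n = 3 each), Tfr2 fell by 0.83 on the log2 scale (SE 0.23, 95% interval −1.29 to −0.36). This was a change of −43.6%, with an interval of −59.2% to −22.0%. Tfr2, on chromosome 5, passed the threshold over all genes. It did not without NFL replicate 1 (−0.80) or without NFL replicate 3 (−0.61), nor with the Wald test of DESeq2 (−0.83).

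Tfr2 is also used by erythroid cells, whose summed marker level was lower in NFL. The 12 markers summed to 163.7 to 173.2 CPM in control and 139.7 to 146.7 CPM in NFL. Of the 12, 8 stayed under 1 CPM in every library. Ank1, the gene of a membrane skeleton protein, made up most of this sum and fell from 132.4 CPM ± 2.76 to 112.3 CPM (log2 fold change −0.23, edgeR adjusted p = 4e-05). Of the 4 tested erythroid markers, only Ank1 passed. The log2 fold change was −0.20 for Gata1 (edgeR adjusted p = 0.086), −0.76 for Klf1 (0.34) and 0.06 for Alas2 (0.96). The 4 globin genes that define the lineage, Hba-a1, Hba-a2, Hbb-bs and Hbb-bt, were at 0 in every library. The part of erythroid cells in the Tfr2 difference was not tested.

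Slc11a2 (also DMT1), which moves ferrous iron out of endosomes, had 46.5, 48.9 and 44.9 CPM in control and 47.8, 46.1 and 50.9 CPM in NFL. The groups overlapped, with a log2 fold change of 0.05 (SE 0.059, 95% interval −0.07 to 0.17). Steap3, the endosomal ferrireductase, had 26.6, 23.8 and 23.4 CPM in control and 26.5, 25.5 and 23.3 CPM in NFL. Here too the groups overlapped, with a log2 fold change of 0.03 (SE 0.080, 95% interval −0.13 to 0.19). Neither gene passed the threshold, and neither interval reached that of Tfr2 (−1.29 to −0.36). Slc11a2 lies on chromosome 15 and Steap3 on chromosome 1. Slc11a2 shares 402 exonic bases with Gm5475 on the opposite strand, which had 0 to 2 reads per library.

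**Figure D2:**
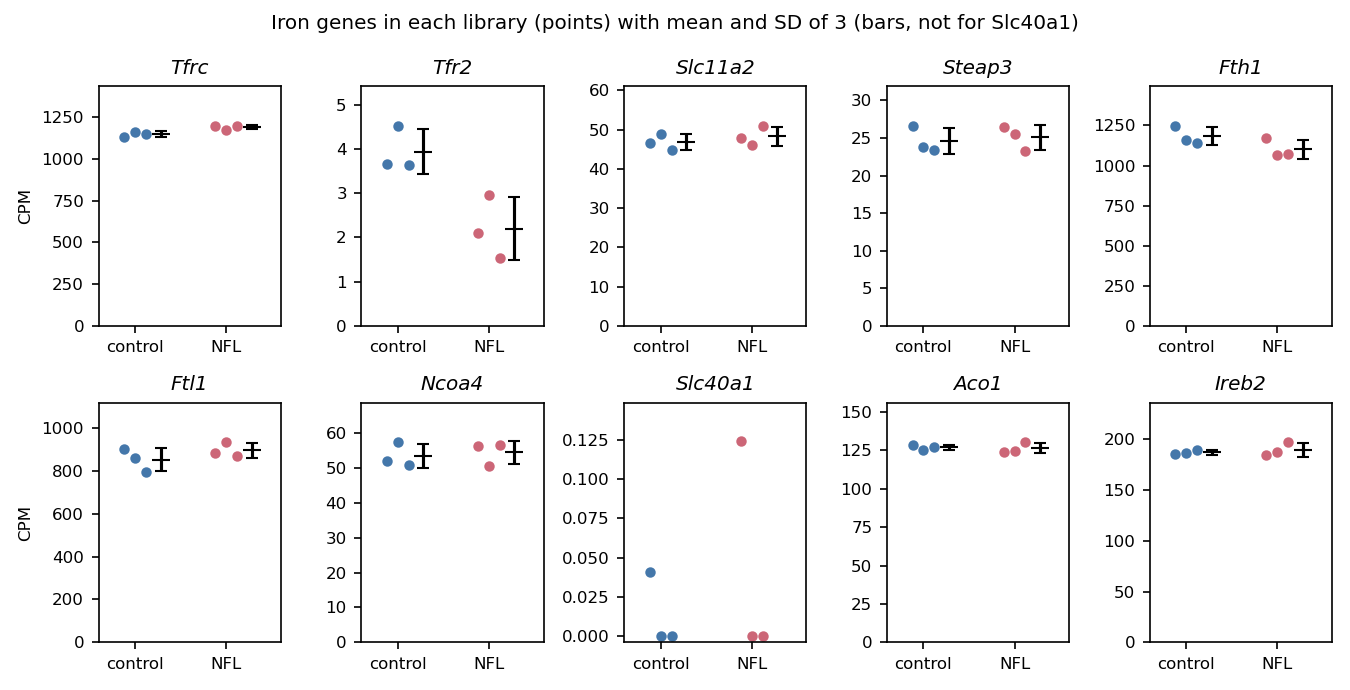
Level of each iron gene in CPM (y axis, starting at 0 apart from a small margin for Slc40a1) in the 3 control and 3 NFL libraries (points), with the mean and SD of 3 libraries as bars except for Slc40a1. The groups are apart for Tfr2, with NFL below control, and narrowly for Tfrc, with NFL above control.

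The 2 ferritin chains, which build the storage shell together, had fold changes of opposite sign, of which that of Fth1 passed the threshold and that of Ftl1 did not. Fth1, the heavy chain that oxidizes iron on entry, had 1246.5, 1158.5 and 1143 CPM in control and 1169, 1064 and 1069 CPM in NFL. NFL replicate 1 lay within the control range, and the other two NFL libraries lay below it. With means of 1183 CPM ± 55.8 in control and 1101 CPM ± 59.0 in NFL (SD, n = 3 each), Fth1 fell by 0.10 on the log2 scale (SE 0.030, 95% interval −0.17 to −0.04). This was a change of −6.97%, with an interval of −10.8% to −2.95%. Fth1 passed the threshold over all genes, but did not without control replicate 1 (−0.06), NFL replicate 2 (−0.08) or NFL replicate 3 (−0.08), nor with the Wald test of DESeq2 (−0.10).

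Ftl1, the light chain that helps to form the iron core, had 899, 860 and 795 CPM in control and 881, 931 and 869 CPM in NFL. The groups overlapped, and control replicate 3 was the lowest of the 6 libraries. The means were 851 CPM ± 52.6 and 894 CPM ± 32.8 (SD, n = 3 each), with a log2 fold change of 0.07 (SE 0.031, 95% interval 0.01 to 0.13). Ftl1 did not pass the threshold over all genes, except without control replicate 1 (0.11). Its reads can be split with near-identical copies: 7 other genes matched it at 95% identity or more over at least 200 bases, and together they held 1.02% to 1.09% as many reads as Ftl1 in every library. No such copy was found for Fth1. Among the 7 genes that matched Ftl1 is Gm10252, which shares 355 exonic bases with Ftl1 on the opposite strand and so is not a separate copy. Gm10252 had 14 to 55 reads per library.

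The ratio of the chains within a library does not depend on how libraries are scaled. The count ratio of Fth1 to Ftl1 was 1.387, 1.347 and 1.439 in control and 1.326, 1.143 and 1.230 in NFL. The highest NFL value lay just under the lowest control value, and the means were 1.39 ± 0.046 and 1.23 ± 0.092 (SD, n = 3 each). Nothing is read from this gap, because both genes were chosen with their fold changes known. The sum of the chains took 0.195% to 0.214% of all counts in control and 0.192% to 0.204% in NFL, so these ranges overlapped. Fth1 lies on chromosome 19 and Ftl1 on chromosome 7.

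Ncoa4, the receptor for ferritin breakdown in lysosomes, had 51.8, 57.2 and 50.8 CPM in control and 56.2, 50.6 and 56.5 CPM in NFL. Its groups overlapped in full, with a log2 fold change of 0.04 (SE 0.058, 95% interval −0.08 to 0.15), and it did not pass the threshold. It lies on chromosome 14.

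Slc40a1 encodes ferroportin, the one known exporter of free iron, which is abundant in macrophages that recycle red cells. It had 1, 0 and 0 reads in control and 2, 0 and 0 reads in NFL, under the floor of 3 counts in each library. Its RNA was therefore not detectable at this depth in either group, and no fold is given. The macrophage markers summed to 24.5 to 27.5 CPM in control and 19.3 to 23.4 CPM in NFL. Of these markers, 12 of 13 stayed under 1 CPM in every library and 8 were at 0, among them C1qa, Cd14 and Itgam. The remaining marker, Cd68, which other cells also express at low levels, had 25.6 CPM ± 1.43 in control and 21.5 CPM in NFL.

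Aco1 and Ireb2, which encode the sensors IRP1 and IRP2, were the steadiest of the iron genes together with Tfrc. Aco1 had 128, 125 and 127 CPM in control and 124, 125 and 130.0 CPM in NFL. Ireb2 had 185, 186 and 189.5 CPM in control and 184, 187 and 196 CPM in NFL. The groups overlapped for both, and neither passed the threshold. The log2 fold change was −0.01 for Aco1 (SE 0.038, 95% interval −0.08 to 0.07) and 0.02 for Ireb2 (SE 0.034, 95% interval −0.05 to 0.09). IRP1 changes between an enzyme and an RNA-binding form, and IRP2 is controlled by its breakdown, so RNA levels do not measure either activity. Aco1 lies on chromosome 4 and Ireb2 on chromosome 9.

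In all, 2 of the 9 tested iron genes passed the threshold, both lower in NFL, against 7.00% of all genes in either direction and 3.53% lower. The groups did not overlap for 2 of the 9, Tfrc and Tfr2, against 22.7% of all genes. Nothing is read from these shares, because the genes were chosen with the comparison known. The count ratio of Tfrc to Fth1, which sets uptake beside storage, was 0.909, 1.004 and 1.007 in control and 1.022, 1.104 and 1.120 in NFL. All NFL ratios lay above all control ratios. The count ratio of Tfrc to Tfr2 was 310, 257 and 316 in control and 566, 396 and 783 in NFL. Nothing is read from these ratios either, because the genes in them were chosen with their fold changes known.

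**Figure D3:**
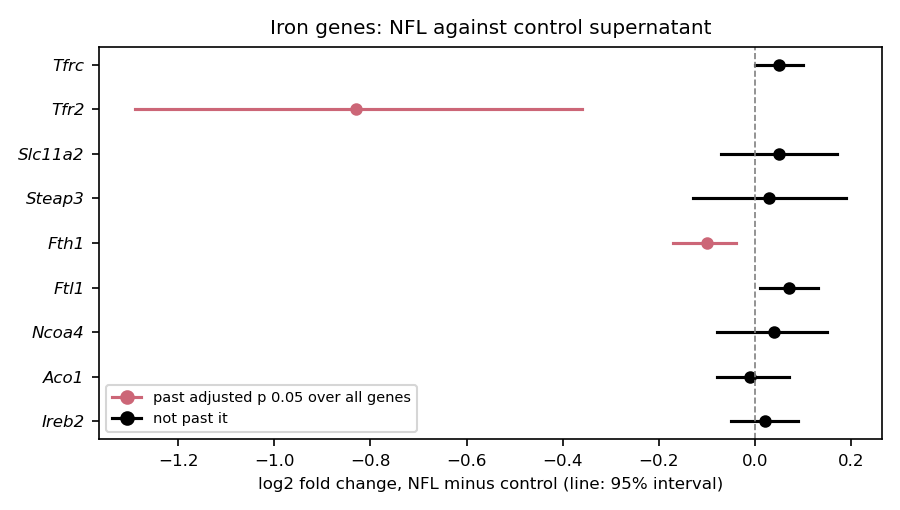
Log2 fold change of NFL minus control for the 9 tested iron genes (points) with 95% intervals (lines), coloured where the adjusted p over all genes was under 0.05. Tfr2 stands at −0.83 with the widest interval, Fth1 at −0.10, and the other intervals lie near 0.

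Levels can be compared between genes only per length. Per kilobase of the reference transcript, the control means ran from Fth1 (1273 CPM per kilobase ± 60.0) and Ftl1 (879 ± 54.4) through Tfrc (235 ± 3.11) to Aco1 (33.1 ± 0.410) and Ireb2 (32.4 ± 0.403). Below them came Ncoa4 (15.9 ± 1.03), Slc11a2 (15.5 ± 0.668), Steap3 (8.56 ± 0.607) and Tfr2 (1.35 ± 0.171). The ranges over the control libraries overlapped for Aco1 and Ireb2 and for Ncoa4 and Slc11a2, although the first of each pair was the higher within each control library. The ranges of the other neighbours in this order did not overlap. The order in NFL was the same by mean, and Tfr2 stood at 0.753 ± 0.247. The order of the ferritins, and that of Ncoa4 and Slc11a2, depends on the length used. Per kilobase of all annotated exons, which include retained introns of Fth1, Ftl1 stood above Fth1. The ratio of Fth1 to Ftl1 was then 0.537 ± 0.018 in control. By control mean, Slc11a2 (7.36) then stood above Ncoa4 (5.69), and Aco1 (28.2) stood further above Ireb2 (19.7). On that scale Tfrc ranked at the 98.7th percentile of all tested genes in control, Aco1 at the 85.4th and Tfr2 at the 17.6th.

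**Figure D4:**
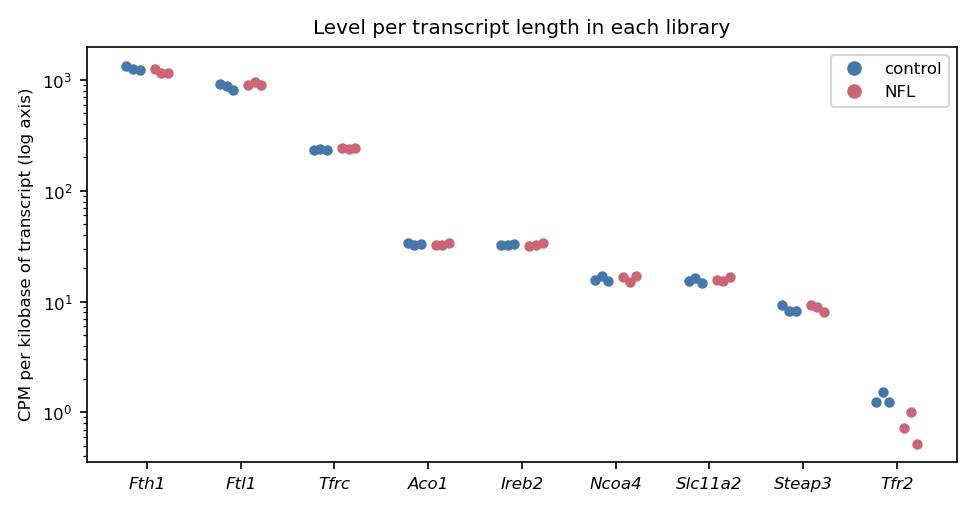
CPM per kilobase of reference transcript on a log axis for each library of control and NFL, for the 9 iron genes above the floor. Fth1, Ftl1 and Tfrc lie above 200, Aco1 and Ireb2 lie together near 33, and Tfr2 is lowest in both groups.

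Genes around these 10 were taken from 3 further lists by role. These lists too were chosen with earlier results of these data known. Their shares, signs and medians are therefore a description, and nothing is read from them. Of 25 other genes of iron handling, 12 were tested, and 1 passed the threshold, against 7.00% of all genes. The list's median log2 fold change was −0.04, against 0.00 over all genes tested, with a range of −0.34 to 0.05. The log2 fold changes were above 0 for 2 of the 12 (16.7%), against 49.6% of all genes, and below 0 for 10. The gene was Trf, transferrin itself, the carrier that Tfrc binds. Trf was added to the list after values were seen, because the list first named it by its human symbol. It had 38.0, 40.0 and 39.4 CPM in control and 29.6, 31.3 and 31.4 CPM in NFL, with no overlap between the groups. Trf fell from 39.1 CPM ± 1.04 to 30.8 CPM ± 0.980 (SD, n = 3 each), with a log2 fold change of −0.34, SE 0.067 and edgeR adjusted p = 3e-04. It passed in all 14 alternative settings, with fold changes of −0.36 to −0.32 on the log2 scale. Trf shares 2108 exonic bases with the annotated gene Gm20425 on the same strand. The M21 identifier of Gm20425 was not among the deposited genes, so no counts of it are given. The highest level per length in this list was that of Pcbp1, a chaperone that delivers iron to ferritin, with 409.6 CPM ± 12.7 in control and 398 CPM ± 5.32 in NFL. Pcbp1 did not pass the threshold (log2 fold change −0.04, edgeR adjusted p = 0.51).

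Of 28 genes of iron-sulfur cluster assembly, all were tested and 0 passed the threshold in edgeR, against 7.00% of all genes. An unadjusted p under 0.05 was found for 6 of the 28 (21.4%), close to the 19.3% of all genes. The log2 fold changes were above 0 for 19 of the 28 (67.9%), against 49.6% of all genes, and below 0 for 9, with a median of 0.06 against 0.00 over all genes, and a range of −0.14 to 0.21. The gene with the highest level per length was Hspa9, a mitochondrial chaperone of cluster transfer. It had 763 CPM ± 6.64 in control and 796 CPM ± 4.25 in NFL (SD, n = 3 each), with a log2 fold change of 0.06 and edgeR adjusted p = 0.17.

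Of 21 genes of heme synthesis, breakdown and transport, 19 were tested and 1 passed the threshold, against 7.00% of all genes. The median log2 fold change was 0.00, as over all genes, with a range of −0.22 to 0.19. The gene was Flvcr1, which encodes a transporter described as a heme exporter. It had 129, 121 and 132 CPM in control and 149, 149 and 139.7 CPM in NFL, with no overlap. The mean of Flvcr1 rose from 127 CPM ± 5.52 in control to 146 CPM ± 5.34 in NFL (SD, n = 3 each), with a log2 fold change of 0.19, SE 0.039 and edgeR adjusted p = 6e-04. It passed in all 14 alternative settings (0.16 to 0.22). Flvcr1 shares 809 exonic bases with an antisense gene, A230020J21Rik, which had 6 to 20 reads per library. The highest level per length was that of Pgrmc1, a heme-binding protein, with 186 CPM ± 4.05 in control and 178 CPM ± 2.73 in NFL and edgeR adjusted p = 0.27.

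**Figure D5:**
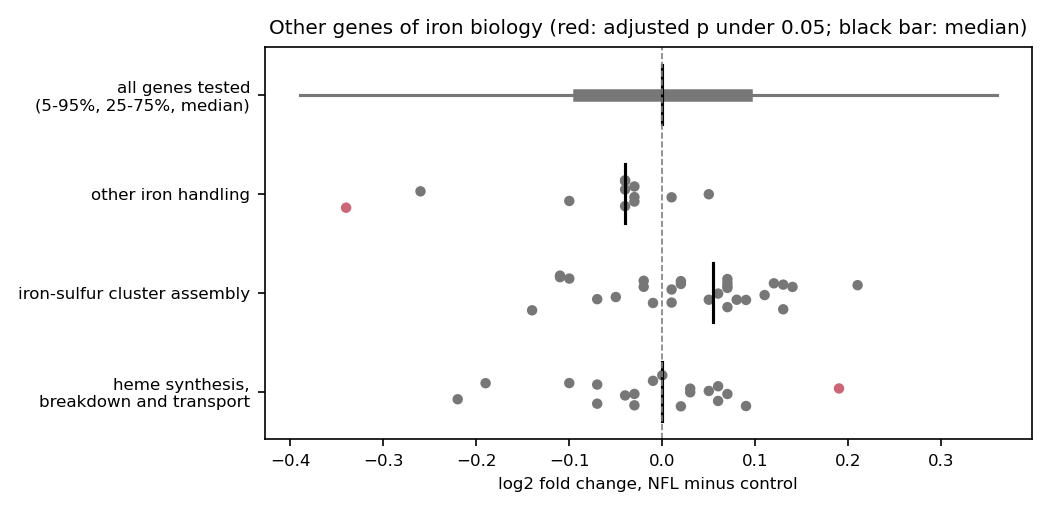
Log2 fold change of NFL minus control (x axis) for each tested gene of the 3 further lists (points, red where the adjusted p was under 0.05), with list medians as black bars and, at the top, the median and percentile ranges of all genes tested. Trf at −0.34 and Flvcr1 at 0.19 are the red points.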

How the data were processed

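Poly(A)-selected RNA of 6 mouse T-cell samples was sequenced by the authors on an Illumina instrument. The authors deposited raw read counts per gene, 1 column per sample, without normalization or pooling. The submitters' processing notes name GRCm39, R 4.2.1 and limma 3.54.2 without a role. The aligner, the counter and whether strand was used are not given in the sources used here. The deposited identifiers were identical to GENCODE M21 (GRCm38) for 54349 of 55401 genes, all 10 iron genes included, so chromosomes, lengths and sequences come from M21, and coordinates are given for those sequences only.

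Symbols covered 55141 genes. Genes were kept by filterByExpr (minimum count 10, minimum total 15), scaled by TMM (factors 0.994 to 1.007) and tested between groups with glmQLFit and glmQLFTest of edgeR 4.0.16 in R 4.3.3, with Benjamini-Hochberg adjustment over 14082 genes and a threshold of 0.05. The tested genes held 99.8% of counts, and the biological coefficient of variation was 3.48%. CPM used the TMM-scaled library sizes. Alternatives were other scalings and filters, the replicate block, thinned counts, each library left out, DESeq2 1.42.0 and limma-voom (limma 3.58.1). The procedure was tested on simulated counts. The iron genes and all lists were chosen with earlier results of these data known. Named genes are the 10 iron genes, genes of the further lists that passed or had the highest level per length, markers, and ferritin copies or genes that overlap them. No library pair of a group agreed within sampling noise (chi-square per degree of freedom 1.88 to 3.42 within groups, 4.81 to 5.31 between). The labels give no batch. Figures were drawn with matplotlib 3.10.9.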

Additional observations from a re-analysis of the deposited data

How the results depend on the processing

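The directions of Tfr2, Fth1, Ftl1 and Tfrc were kept in all 14 alternatives, with log2 fold changes of −1.10 to −0.61, −0.15 to −0.06, 0.02 to 0.11 and 0.04 to 0.06. Tfr2 passed the threshold in 11 of them and Fth1 in 10, whereas Tfrc, Aco1, Ireb2, Ncoa4, Slc11a2 and Steap3 passed in 0. With the Wald test of DESeq2, 605 genes passed over all genes and 0 of the iron genes, in place of 986 and 2. Leaving out 1 library gave 508 to 966 genes, with 616 without NFL replicate 2 and 508 without NFL replicate 3. The iron genes that passed then numbered 0 to 2, with 1 without NFL replicate 1, 1 without NFL replicate 2 and 0 without NFL replicate 3. Of the iron-sulfur genes, 1 passed with counts thinned to the smallest library (Ciapin1, 0.18), and 0 to 1 with 1 library left out (Cisd1, 0.21, without NFL replicate 1). Of the heme genes, 2 passed with library size alone and 1 to 2 with 1 library left out, the second being Fech (−0.20, and −0.23 without control replicate 2). The cause of these changes was not tested. Where 1 library was left out, the smaller number of samples cannot be told apart from the library left out. The other scalings moved the median of all genes by no more than 0.015.

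Samples with the same replicate number had correlations of 0.015, 0.010 and 0.005 between their deviations from the group means, so the numbers were not taken to pair the samples, although every sample correlated best with its own number. With the replicate block, 1049 genes passed, 2 of the iron genes among them (Tfr2 −0.86, Fth1 −0.10). Depth limits Tfr2, which rests on 27 to 90 reads per library, and Slc40a1, which was under the floor.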
